A study of Trichosurus vulpecula with 6 samples.

Results

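Desmosome genes were examined in ear punch skin of the common brushtail possum (Trichosurus vulpecula), starting from a list of 8: the plaque genes DSP, JUP, PKP1 and PKP3, the cadherin genes DSG1, DSC1 and DSC2, and PERP, which codes for a membrane protein of desmosomes. Members were looked up by symbol among the genes of the RefSeq annotation of assembly mTriVul1.pri and among the reference names carried by the assembled transcripts. Of the 8, 4 were matched (DSG1, DSC1, PKP1 and PKP3), out of 18737 genes or named features with a transcript. DSP, JUP, PERP and DSC2 matched no entry under those names, so no value is given for them, and plaque genes are represented below by the plakophilins alone.

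The samples were 6 adult females, 3 with grey fur and 3 with black fur, 1 library for each animal, taken to characterise expression in skin of the 2 coat colours. Poly(A)-enriched, strand-specific libraries were sequenced from total RNA of the punch, and the labels name no treatment and give age only as adult. The aligned sequence behind the assembled transcripts came to 4.17 gigabases in grey replicate 1 and to between 6.47 and 10.2 gigabases in the other 5 libraries. An ear punch is a mixed tissue, so the level of an epidermal gene reflects both the share of epidermal cells and the RNA of each cell, and these cannot be told apart in bulk RNA.

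Desmosomes are spot-like junctions that tie the keratin filaments of neighbouring cells together and give epidermis its mechanical strength. In the space between the cells, cadherins of the desmoglein (DSG) and desmocollin (DSC) families bind each other. On the inner face, the armadillo proteins plakoglobin (JUP) and the plakophilins (PKP) link the cadherin tails to desmoplakin (DSP), which holds the keratin. Cadherins are exchanged as keratinocytes move outwards: DSG1 and DSC1 belong mainly to the differentiated layers of mammalian epidermis, and DSG3 mainly to the deeper ones.

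All 4 matched members were expressed in every library, and DSG1 stood highest. Levels are given as TPM, the abundance of a transcript per unit of its length after scaling every library to the same total, summed over the transcripts of a gene. DSG1, the desmoglein that blistering autoantibodies bind in pemphigus foliaceus, had a mean of 1436 TPM ± 257 (SD, n = 6), which placed it at rank 91 of the 15831 genes whose mean reached 1 TPM. DSC1, its desmocollin partner of the upper layers, averaged 469 TPM ± 131 (rank 250). PKP1, the plakophilin whose loss causes ectodermal dysplasia with skin fragility, averaged 416 TPM ± 89.8 (rank 286). PKP3, a plakophilin found throughout the living layers, averaged 163 TPM ± 20.4 (rank 812). The members' coverage equalled 6850.1 reads (PKP3) to 87802 reads (DSG1) in the shallowest library, so counting error at these genes was small beside the spread between animals.

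The order of these levels was tested between neighbours over the 6 libraries. The neighbours were set by the mean TPM of these same libraries, so the pairs and their direction were not chosen independently of the values tested. DSG1 was above DSC1 in 6 of 6 libraries, by a geometric mean of 3.11-fold in TPM and by between 2.30- and 4.34-fold in single libraries (exact sign-flip test, two-sided, p = 0.0313, adjusted p = 0.0469 over 3 pairs; 0.0313 is the smallest p that 6 libraries allow). PKP1 was above PKP3 in 6 of 6 libraries, by a geometric mean of 2.51-fold (exact sign-flip test, p = 0.0313, adjusted p = 0.0469). DSC1 and PKP1 were not separated: DSC1 was the higher in 3 of 6 libraries, and the DSC1 to PKP1 ratio ran from 0.825 to 1.51 (exact sign-flip test, p = 0.344). The size of the DSG1 to DSC1 ratio also moved with the treatment of length, to 5.57-fold (4.71 to 7.43) with 1 fixed exon length for each gene and to 2.34-fold (1.97 to 2.64) over internal exons that all libraries shared. Among the neighbours, only the order of DSC1 and PKP1 depended on how length was treated. With coverage divided by 1 fixed exon length for each gene, DSC1 was below PKP1 in 6 of 6 libraries (0.774-fold), and with coverage of the internal exons that all 6 libraries shared it was above PKP1 in 6 of 6 (1.73-fold).

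The comparison of coat colours asked whether skin under black fur differed from skin under grey fur in these genes. In DSG1, the grey animals had 941, 1645 and 1420 TPM and the black animals 1455, 1560 and 1592 TPM. The black values lay close together, within the range of the grey values, which was stretched downwards by grey replicate 1. For PKP1 the grey libraries gave 249, 483 and 503 TPM, while the black libraries gave 417, 433 and 408 TPM. PKP3 measured 123, 179 and 176 TPM under grey fur, compared with 161, 168 and 169 TPM under black fur. In both plakophilins the 3 black values lay between the lowest and the 2 higher grey ones, while in DSG1 they lay between the 2 higher grey values. DSC1 reached 367, 398 and 617 TPM in the grey group, against 406, 655 and 367 TPM in the black group, so each colour held 1 high and 2 lower libraries. The plot of TPM by library shows the overlap of the groups for all 4 genes.

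**Figure D1:**
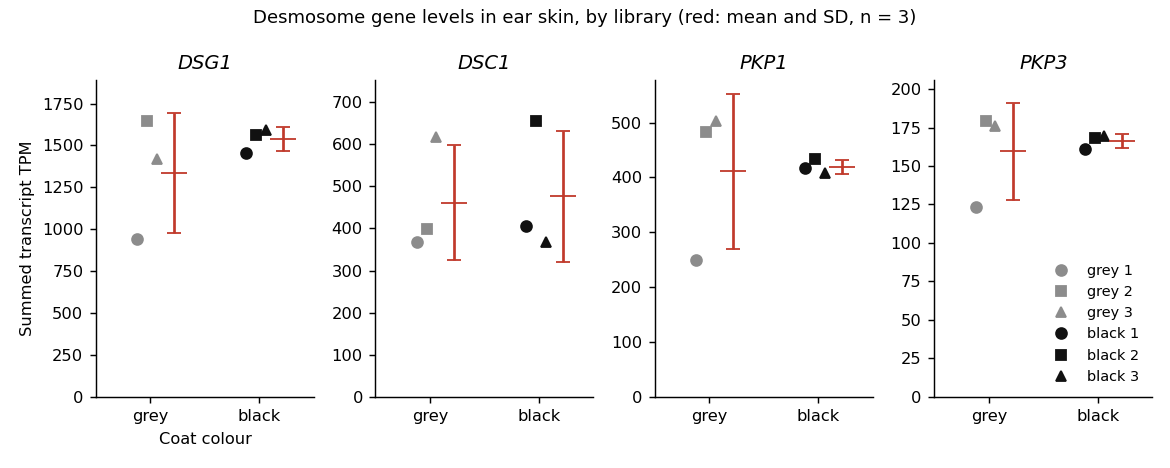
Summed TPM of DSG1, DSC1, PKP1 and PKP3 (vertical axes, starting at 0) in the 3 grey and 3 black libraries, with the mean and SD of each colour in red. Grey replicate 1 is the lowest library for DSG1, PKP1 and PKP3, at 941, 249 and 123 TPM, and the groups overlap for every gene.

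None of the 4 members passed the test. Over all 15831 genes, limma with Benjamini-Hochberg adjustment called 3, which is 0.019% of those tested, with 373 at an unadjusted p under 0.05. No member was called and none had an unadjusted p under 0.05. In log2(TPM + 1), black minus grey, DSG1 differed by 0.24 ± 0.24 (SE; 95% interval -0.33 to 0.80; limma adjusted p = 1.00), that is by between 0.797- and 1.75-fold. Leaving out grey replicate 1 took it to 0.01 and leaving out grey replicate 2 to 0.41. The difference was 0.04 ± 0.30 for DSC1 (interval -0.67 to 0.74), 0.10 ± 0.28 for PKP1 (-0.58 to 0.77) and 0.08 ± 0.18 for PKP3 (-0.36 to 0.52), each with a limma adjusted p of 1.00. The intervals reach as far as 0.80 (DSG1) on one side and -0.67 (DSC1) on the other, so they do not show that the colours are alike. Values of the 2 colours did not overlap in 6.46% of all genes tested, and in 0 of the 4 members. The median log2 difference over all genes tested was 0.04.

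**Figure D2:**
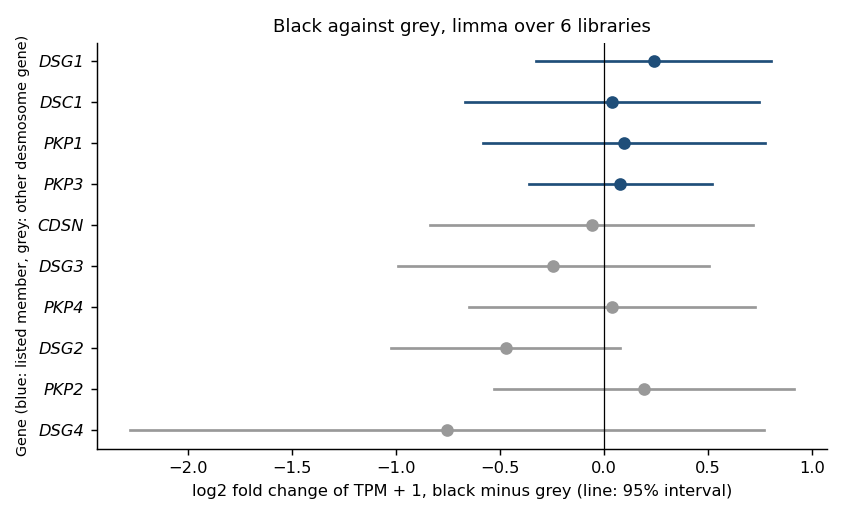
The log2 fold change of TPM + 1, black minus grey, for the 4 members (blue) and 6 further desmosome genes (grey), with the 95% interval from limma over 6 libraries. All 10 intervals cross 0, and that of PKP3 is the narrowest, from -0.36 to 0.52.

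Grey replicate 1, the shallowest library, carried much of the spread in the grey group. Its DSG1, PKP1 and PKP3 levels were 66.3%, 60.9% and 76.6% of the lowest value among the other 5 libraries, and its DSC1 level was 100% of it. Over all genes tested, 23.3% had their lowest value there. Without it, the black minus grey difference was 0.01 for DSG1, -0.11 for DSC1, -0.23 for PKP1 and -0.10 for PKP3, and no member was called. The same library stood apart in its makeup. The summed level of 3 hair follicle genes (KRT25, TCHH and KRT35, which belong to the inner root sheath and hair shaft) was 923 TPM there and between 4.69 and 31.6 TPM in the other 5. The 4 matched fibroblast genes (COL1A1, COL1A2, DCN and LUM, of the dermal matrix) summed to 3590 TPM there, against 950 to 2698 TPM elsewhere. DCN, at 2236 TPM, made up most of that sum, and DCN and COL1A2 were highest there. COL1A1 and LUM were higher in black replicate 3 (354 against 340 TPM and 719 against 604 TPM). The share of these differences in the low member levels was not tested. Black replicate 1 also stood apart, with 2294 TPM over 4 skeletal muscle genes against 1.89 to 5.23 TPM elsewhere, and without it the black minus grey difference was 0.28 for DSG1, 0.13 for DSC1, 0.10 for PKP1 and 0.10 for PKP3.

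Ratios within a library do not depend on how much epidermis the punch held relative to other tissue, as long as the genes belong to the same cells. That condition is not fully met, as DSG1 and DSC1 belong mainly to the differentiated layers and PKP3 to all living layers. The ratios can therefore also vary with the balance of layers in a punch, which was not tested. The plakophilins, summed, stood at 0.284, 0.324 and 0.333 of the summed DSG1 and DSC1 level in grey skin, and at 0.310, 0.272 and 0.295 in black skin. The 2 ranges overlapped, with black replicate 2 the lowest. On the log2 scale the black mean was lower by 0.10 (-1.68 ± 0.12 in grey, -1.78 ± 0.10 in black, SD, n = 3), which the exact permutation test did not separate (two-sided p = 0.3, where 3 against 3 cannot go below 0.1). With a fixed exon length the difference was -0.16, the ratios of the 2 colours did not overlap, and the exact permutation p was 0.1, the smallest possible. This ratio covers only the plakophilin part of the plaque, since DSP and JUP have no value. Its cadherin side is likewise only DSG1 and DSC1, since DSC2 has no value and the other genes of the cadherin row were not summed. In TPM the PKP3 to DSG1 ratio ran from 0.106 to 0.131 over the 6 libraries, an SD of 0.12 in log2, against an SD of 0.30 for DSG1 itself and 0.20 for PKP3. The PKP1 to DSG1 ratio ran from 0.257 to 0.354. The DSG1 to DSC1 ratio had an SD of 0.41 in log2 in TPM, but of 0.23 with a fixed exon length and 0.19 over shared internal exons. Which pair kept closest together changed with the scale: over shared internal exons the PKP3 to DSC1 ratio had the lowest SD of the 6 pairs, 0.09, while that of PKP3 to DSG1 was 0.19. The PKP3 to DSG1 ratios of the 2 colours overlapped neither with the fixed length nor over shared exons. Black was lower by 0.16 in log2 with the fixed length and by 0.26 over shared exons. The exact permutation p was 0.1 in each case, the smallest possible, and 0.3 and 0.6 after adjustment over the 6 pairs. The PKP1 to DSC1 ratios also did not overlap with the fixed length (black lower by 0.26 in log2, exact permutation p = 0.1, adjusted p = 0.3), but they did over shared exons (p = 0.9).

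Set against basal keratinocyte genes, the members again showed no separation by colour. TP63, the transcription factor of the basal layer, and COL17A1, a hemidesmosome collagen, were the basal markers with a symbol match, as KRT5, KRT14 and KRT15 matched no entry. Relative to the mean log2 level of these 2 genes, the black minus grey difference was 0.07 for DSG1, -0.13 for DSC1, -0.07 for PKP1 and -0.08 for PKP3. The exact permutation p ran from 0.2 for PKP3 to 0.9 for DSC1, and the adjusted p over the 4 members from 0.8 to 0.9. A level relative to basal genes can also vary with the balance of layers in a punch, which was not tested.

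DSC1 transcripts were assembled at different lengths in different libraries. For a given number of reads, the TPM of a gene falls as its assembled length grows, and the 3′ end of DSC1 was placed differently from library to library. RefSeq puts DSC1 on the minus strand at chr1:253541827-253585624. The assembled transcripts ran past that 3′ end by 1133 bases in the shortest form, by 2722 to 2756 bases in an intermediate one and by 5943 to 5947 bases in the longest. In grey replicate 1 no transcript TPM lay in forms that ran over 2 kb past the annotated end, while in black replicate 2 the share was 29.4% and in the other 4 libraries it was 100%. The mean assembled length, weighted by TPM, was 4098, 8890 and 5917 bases in the grey libraries and 8238, 5702 and 8998 bases in the black ones. The 2 libraries with the highest DSC1 TPM, grey replicate 3 and black replicate 2, were those of intermediate length. Grey replicate 1, with the shortest length, and black replicate 3, with the longest, were both at 367 TPM. The share of assembled length in the spread of DSC1 was not tested.

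On both scales that divide by the same length in every library, the black DSC1 values drew together. With a fixed exon length DSC1 came to 211, 489 and 494 units of a fixed-length TPM under grey fur, compared with 455, 502 and 455 under black fur. The grey values did not, their SD being 29.6% of the mean in deposited TPM, 40.8% with the fixed length and 28.3% over shared exons. The SD of the black libraries was 32.8% of their mean in deposited TPM, 5.86% with the fixed length and 5.02% over 15 internal exons shared by all libraries. The coverage of those 15 exons, per gigabase aligned, was 185, 262 and 332 in grey and 264, 292 and 277 in black skin. Grey replicate 1 was the lowest on both the fixed-length and the shared-exon scale. The black minus grey log2 difference of that coverage was 0.14 (exact permutation test, p = 0.7). In fixed-length TPM, where grey replicate 1 lay furthest below the rest, the limma difference was 0.34, with an adjusted p of 1.00. That scale divides by 1 length but counts only the coverage of transcripts assembled in each library. It therefore still depended on where the 3′ end was placed, which in grey replicate 1 was the nearest. For DSG1, PKP1 and PKP3 the SD of the black libraries was between 1.58% and 6.75% of the mean on all 3 scales.

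**Figure D3:**
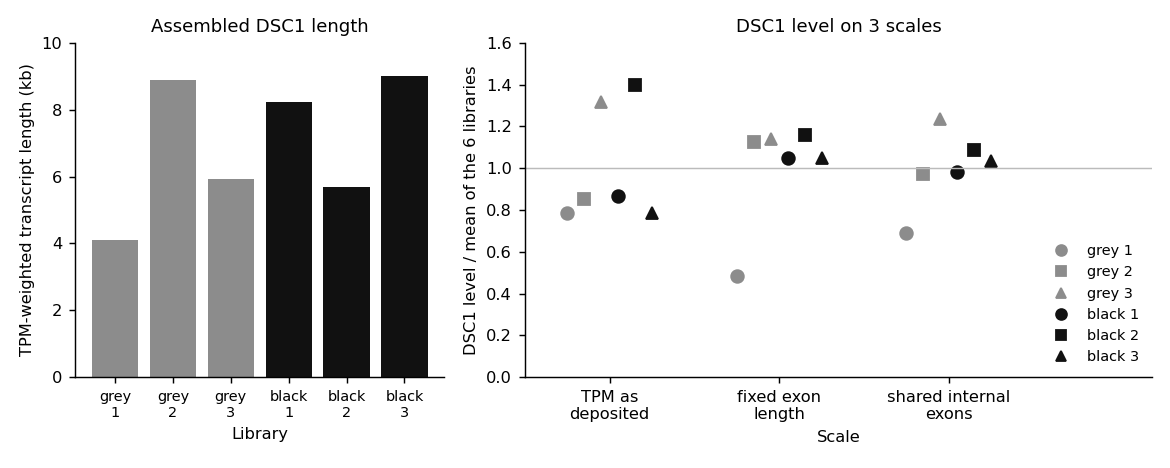
Left, the TPM-weighted mean length of assembled DSC1 transcripts (kb) in each library. Right, the DSC1 level of each library divided by the mean of the 6, in deposited TPM, with a fixed exon length and over shared internal exons. The 3 black libraries spread by 32.8% of their mean in TPM and by 5.02% over shared exons. Grey replicate 1 is lowest with a fixed exon length and over shared exons.

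DSG1 and DSC1 sit in a row of cadherin genes on chromosome 1 that spans 708 kb. From the lower coordinate upwards the row held LOC118848515 (253354264-253422995) and LOC118833634 (253454081-253497236), 2 protein-coding genes with no symbol, then DSC1, all on the minus strand. On the plus strand followed DSG1 (253790176-253835002), DSG4 (253865075-253903344), DSG3 (253956257-253989901) and DSG2 (254019913-254061801). DSC1 and DSG1 are thus the neighbours from which the 2 strands run apart, with 205 kb between them, and in multi-exon transcripts they were the 2 highest of the 7 in every library. LOC118833634 ran from 66.1 to 124 TPM. LOC118848515 ran from 175 to 250 TPM in multi-exon transcripts, and up to 452 TPM when the single-exon transcripts overlapping it were counted, with which it exceeded DSC1 in grey replicate 2 (436 against 398 TPM).

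The desmogleins beyond DSG1 covered a wide range of levels. DSG3, the desmoglein of the deeper epidermis, held 48.1, 56.0 and 109 TPM under grey fur, compared with 52.1, 65.2 and 51.5 TPM under black fur, so that DSG1 exceeded it by between 13.1- and 30.9-fold. DSG2, which is best known from simple epithelia and heart, held 9.45, 8.12 and 5.82 TPM in the grey group, against 5.49, 5.54 and 4.72 TPM in the black group. The DSG2 groups did not overlap in TPM, but the log2 difference of -0.47 ± 0.23 (SE) did not pass the test (limma adjusted p = 1.00). They overlapped with a fixed exon length, where grey ran from 6.64 to 13.4 and black from 7.59 to 8.52, and over shared internal exons. DSG4, the desmoglein of the hair shaft, was at 6.32 TPM in grey replicate 1, between 1.52 and 2.75 TPM in 4 libraries, and listed at 0 in black replicate 3. Its highest library was the one that also held the most hair follicle keratin.

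**Figure D4:**
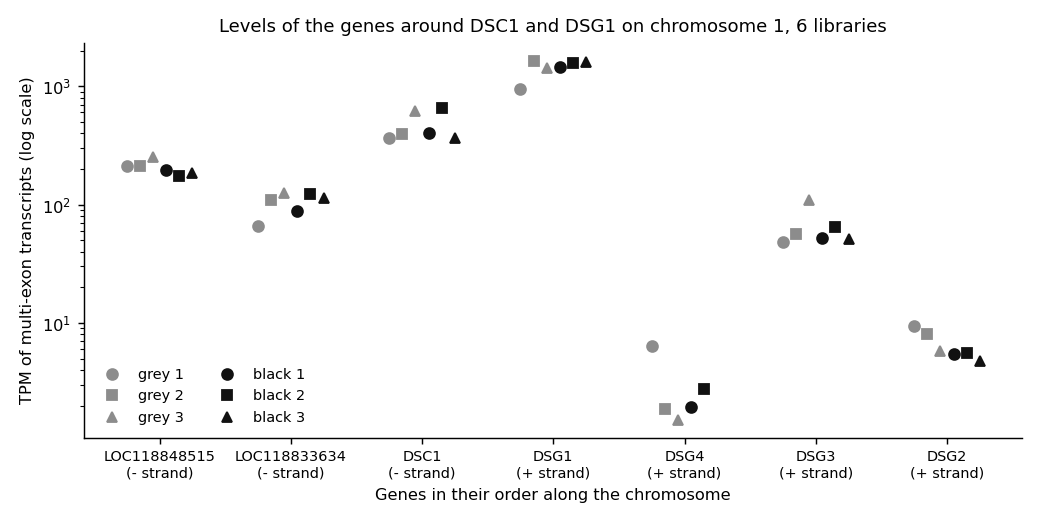
TPM of multi-exon transcripts (log scale) for 7 cadherin-row genes in their order along the chromosome, 1 point for each library. DSC1 and DSG1 lie above their neighbours in all 6 libraries, and DSG4 of black replicate 3, listed at 0, is not drawn.

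The 2 unnamed genes beside DSC1 resembled it in exon structure. In the order of transcription, exons 2 to 16 of DSC1 measured 85, 203, 120, 156, 142, 164, 135, 186, 260, 143, 213, 243, 122, 258 and 46 bases. In LOC118833634 the 15 exons in the same positions had the same length in 8 cases and differed by a multiple of 3 bases in the other 7, by at most 15 bases. In LOC118848515 the same length was found in 7 of 15, again with every difference a multiple of 3. Among the desmogleins, exons 2 to 10 had the same length in 8 of 9 cases between DSG1 and DSG4, in 7 of 9 between DSG1 and DSG3 and in 4 of 9 between DSG1 and DSG2, with every difference a multiple of 3. Between the 2 families, exons 4 to 11 of DSC1 against exons 3 to 10 of DSG1 had the same length in 4 of 8 cases and differed by multiples of 3 in the rest. Over 11 internal exons of the plakophilins, 1 had the same length in PKP1 and PKP3 and all 11 differed by multiples of 3 or not at all, by up to 246 bases. Neither unnamed gene is given a name here, as no label or table pairs one with it.

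Desmocollin genes are known to make 2 proteins, a longer a form and a shorter b form, through a small exon near the end of the coding sequence. An exon of 46 bases was assembled in all 6 libraries in DSC1 (chr1:253542109-253542154) and in both unnamed neighbours. Its inclusion, as a share of the TPM of transcripts that cross the site, was 79.3%, 78.7% and 91.0% in the grey and 92.8%, 59.2% and 82.6% in the black libraries for DSC1. For LOC118833634 the share was 65.4%, 69.4% and 75.0% in grey and 83.8%, 54.0% and 77.3% in black skin. In both genes black replicate 1 had the highest share and black replicate 2 the lowest. For LOC118848515 it ran from 65.3% to 79.2%, with grey replicate 1 the highest. The mean over 6 libraries was 80.6% ± 12 (SD) for DSC1, 70.8% ± 10.4 for LOC118833634 and 71.6% ± 6.10 for LOC118848515, so the larger part of the TPM that crossed the site held the exon in every library. These shares come from the assembler's division of coverage among transcripts and were not tested between colours.

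Other forms of DSC1 were minor or varied by assembly. Exon 3, of 203 bases, was skipped in 4 of 6 libraries, in at most 5.39% of the TPM crossing it. A gap of 30 to 67 bases, with ends that varied from transcript to transcript, divided the terminal region in 48 of the 49 assembled DSC1 transcripts, in all 6 libraries. DSG1 was the simplest member: 1 transcript with 15 exons was assembled in each of 4 libraries, and its 13 internal exons had the same ends in all 6. In black replicates 2 and 3, 24.4% and 17.0% of its TPM lay in forms whose last exon was divided by a gap of 36 to 96 bases. Whether these short gaps are spliced introns was not tested.

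The plakophilins also had alternative ends. PKP3 (chr6:284677231-284691023, minus strand) began most often at the exon RefSeq gives as its first, which held 72.4%, 79.5% and 68.1% of TPM in grey and 63.3%, 66.8% and 71.4% in black skin. The other main start lay 2741 to 3390 bases upstream and held between 18.9% and 36.7% of TPM, in all 6 libraries. A start between those was assembled in grey replicate 2 and black replicate 2 only, with at most 2.40%. Upstream transcripts joined a second exon of 178 bases in 54.6% to 81.9% of their TPM, or one of 217 bases, 39 bases longer, in 0% to 45.4%. PKP1 (chr4:101587492-101666028, plus strand) had 14 exons in its main form in all 6 libraries. Its last exon began at either of 2 acceptors 555 bases apart. The longer last exon, of 4099 to 4104 bases, held 62.4% to 97.3% of PKP1 TPM, and the shorter held 22.1% to 36.4% in 5 libraries and was not assembled in black replicate 1.

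**Figure D5:**
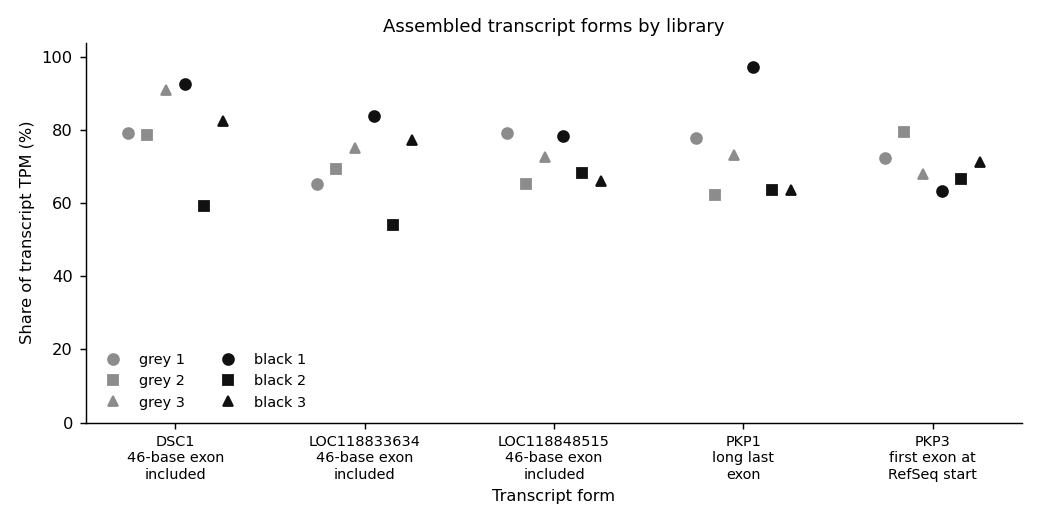
Share of transcript TPM (%) held by 5 transcript forms in each library: the 46-base exon in DSC1 and its 2 unnamed neighbours, among transcripts that cross the site, the long last exon of PKP1 and the RefSeq first exon of PKP3. The exon is in 54.0% to 92.8% of the TPM that crosses the site over the 3 genes, with black replicate 2 lowest for DSC1 (59.2%) and LOC118833634 (54.0%).

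Coverage was even along DSG1 and lower at the 5′ side of PKP1, DSC1 and PKP3. The log2 ratio of the first 3 to the last 3 shared internal exons lay between -0.05 and 0.09 for DSG1, between -0.29 and -0.16 for PKP1, between -0.78 and -0.47 for DSC1 and between -0.96 and -0.66 for PKP3. Grey replicate 1 had the lowest value for each of the 4 members, and between colours the exact permutation test gave p from 0.4 to 0.6. A lower 5′ side was not particular to members: the ratio lay between -1.39 and -0.95 for COL1A1, -1.17 and -0.75 for COL17A1, and -1.13 and -0.85 for LOC118833634.

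Of the other desmosome genes on the list, 6 of 7 were matched, all but DSC3, and 0 of 6 were called in either direction, with a median log2 difference of -0.15 against 0.04 over all genes. CDSN, the corneodesmosin that strengthens desmosomes of the cornified layer, held 341, 613 and 831 TPM in the grey libraries, while the black libraries held 579, 559 and 474 TPM, the highest of the 6. PKP4 ran from 19.4 to 41.0 TPM and PKP2, the plakophilin of heart and simple epithelia, from 3.19 to 6.01 TPM, so PKP1 and PKP3 were the leading plakophilins in all 6 libraries.

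The remaining junction and layer lists were read beside the members, and limma called 0 genes in every one. The adherens junction genes (8 of 9 matched), among them CTNNB1 and CTNNA1, which code for beta- and alpha-catenin, summed to 644 to 710 TPM over all 6 libraries. That range was narrower than the 372 to 679 TPM of the 2 plakophilins, whose low end was grey replicate 1 alone. In the remaining libraries the plakophilins summed to 578 to 679 TPM. The 2 sums hold different numbers of genes, and their spreads were not tested against each other. In the tight and gap junction list (8 of 8), the gap junction gene GJA1 was highest, from 354 to 779 TPM. The 6 hemidesmosome genes summed to 557 to 771 TPM in grey and 684 to 907 TPM in black skin, and COL17A1 led them at 190 to 374 TPM. Of the cornified layer list, 8 of 9 were measured and 7 tested, of which 4 had a log2 difference above 0, with a median of 0.04. TGM3, a transglutaminase of the cornified envelope and hair, held 101, 67.0 and 84.0 TPM under grey fur, compared with 134, 132 and 136 TPM under black fur. Its groups did not overlap, and its log2 difference of 0.69 ± 0.18 (SE) had an unadjusted p of 0.00728 and a limma adjusted p of 1.00. IVL, the envelope protein involucrin, named after its values were seen, differed the other way, by -2.16 ± 0.84 (SE; unadjusted p = 0.0389, limma adjusted p = 1.00). Its levels were low, at 15.04, 1.24 and 15.09 TPM under grey fur and 0, 2.01 and 1.17 TPM under black fur. Grey replicate 2 lay within the black range, so the IVL difference rested on the other grey libraries. SBSN, the suprabasal gene suprabasin, was the one match of 4 in its list and ran from 2740 to 5469 TPM.

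Among epidermal transcription factors, 8 of 8 were measured and 6 of 8 had their lowest value in grey replicate 1, as did 3 of the 4 members. KLF4, ZNF750 and GRHL1, factors of keratinocyte differentiation, were the highest of that list, from 66.2 to 119 TPM together. ZNF750 was also 1 of the 5 named genes whose pattern over the 6 libraries was most like the mean of the members, with Pearson's r = 0.99. The others were YOD1 (0.99), Mt2 (0.99), EIF1AX (0.98) and ATP6V1E1 (0.98). This likeness is a description over 6 libraries that share the low grey replicate 1, and 209 of 15827 other genes reached an r of 0.9 or more. ZNF750 was at 83.7 TPM in grey replicate 1 and at 98.2 to 109 TPM elsewhere. The members, each part of that mean, had r = 0.97 (PKP1), 0.97 (PKP3), 0.90 (DSG1) and only 0.63 (DSC1), so the mean describes DSC1 least. Among other genes of the cadherin row, LOC118833634 had r = 0.95, DSG3 0.60 and LOC118848515 0.39. CDSN, which lies on chromosome 7, had r = 0.87.

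The remaining cell type lists give the makeup of the punches. Melanocyte genes (5 of 5) summed to 61.8 to 249 TPM in grey and 94.9 to 246 TPM in black skin, endothelial genes (3 of 3) to 127 to 198 and 139 to 187 TPM, and cartilage genes (3 of 3) to 168 to 358 and 137 to 191 TPM. Macrophage genes (3 of 3) summed to 33.9 to 51.5 TPM in grey and 29.5 to 140 TPM in black skin, and adipocyte genes (2 of 3) to 10.2 to 22.9 and 4.16 to 19.4 TPM.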

How the data were processed

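The deposited files hold, for each library, the transcripts the authors assembled, with coverage, FPKM and TPM among the other transcript attributes. Per the labels and methods, reads were trimmed (Trim Galore 0.6.10), aligned to the possum assembly mTriVul1.pri with HISAT2 2.2.1 and assembled with StringTie 2.2.0 against the annotation; the authors removed reads of contaminating amplicons. Read counts were not used here.

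Here, 237672 of 274079 transcripts were assigned to RefSeq genes by same-strand exon overlap and 1298 by name, and TPM was summed per gene and library. Genes whose mean reached 1 TPM were fitted with limma 3.58.1 (R 4.3.3; mean-variance trend) on log2(TPM + 1), which understates changes of low genes, with an adjusted p threshold of 0.05. Single values were compared by exact tests over libraries. Scripts were tested on simulated data. A fixed exon length, and coverage of internal exons assembled with the same ends in every library, served as other scales; the second and the TP63 and COL17A1 reference were chosen after seeing the data. The planned ratios to DSC2 and to keratin genes could not be run, as those genes matched no entry.

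The members and lists were chosen with earlier results of these data known. Named genes were all members and other desmosome genes, at most 3 highest genes of each further list and the 5 genes most like the members. Separate animals are implied by the labels; p-values measure the spread between these samples. No sequence is shown, as none was given for these genes. The series' other genes were not analysed here beyond the fit.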

Additional observations from a re-analysis of the deposited data

How the results depend on the processing

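In all, 173 results under alternative settings were recomputed. Of these, 142 kept their direction and side of the threshold or, for counts of called genes, stayed near the reported count. Part of that agreement was fixed in advance. Within a library FPKM is proportional to TPM, and all member transcripts were multi-exon, so those settings could not change ratios between members. With so few libraries the exact tests between colours cannot reach the threshold under any setting. For the ratios and differences tested that way, only the direction could change. No member was called under any setting, the limma adjusted p of the members lying between 0.990 and 1.00. The count of genes called (3) became 1 with a pseudocount of 0.1, 1 when the minimum mean was 5 TPM, 7 with a fixed exon length and 0 with the replicate block, and ran from 1 to 4 without single libraries. Same-numbered libraries did not deviate together over all genes (correlations -0.02, 0.02 and -0.05). No label says that same-numbered animals are related, but correlations over so few libraries cannot exclude it. The block changed no call of a member. With the replicate block, the difference of -0.10 in plakophilins over DSG1 and DSC1 gave p = 0.5 (exact sign flips).

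The difference in plakophilins over DSG1 and DSC1 ran from -0.17 (without grey replicate 1) to -0.05 (without black replicate 2) and was -0.16 with a fixed exon length. The DSG1 difference of 0.24 ran from 0.01 to 0.41 without single libraries. The DSC1 difference turned to -0.032 with quantile normalization, and ran from -0.22 to 0.27 without single libraries, below 0 without grey replicate 1 (-0.11), grey replicate 2 (-0.05) or black replicate 2 (-0.22). The PKP3 difference turned to -0.0035 with quantile normalization and ran from -0.10 (without grey replicate 1) to 0.17 without single libraries, and that of PKP1 ran from -0.23 (without grey replicate 1) to 0.27. Relative to TP63 and COL17A1, the DSC1 difference of -0.13 ran from -0.36 to 0.013 and the PKP1 difference of -0.07 from -0.21 to 0.010 without single libraries, above 0 without grey replicate 3 or, for DSC1, black replicate 3. The DSC1 over PKP1 log2 ratio was 0.16 as reported, -0.37 with a fixed exon length and 0.79 over shared internal exons. Without single libraries the DSG1 over DSC1 log2 ratio ran from 1.54 to 1.72 and that of PKP1 over PKP3 from 1.29 to 1.39; 5 libraries cannot pass the threshold (adjusted p = 0.0938, exact). The cause of these shifts was not tested. Depth limits DSG4, DSG2 and PKP2, which stood at a few TPM.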
